A study of Mus musculus with 16 samples.

Results

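The genes described are the 7 scavenger receptors for modified lipoprotein Cd36, Msr1, Olr1, Scarb1, Marco, Cd68 and Stab1, chosen by name from the 54838 gene identifiers counted in bone marrow-derived macrophages of Apoe-deficient mice. All 7 were found by symbol and all 7 were among the 12612 genes that passed the filter on low counts. The cells had been given the inflammatory cytokine TNFα, alone or after an inhibitor, or DMSO. In the fit without pairing the main differences were in 5 of the genes. TNFα raised Olr1 and Marco and lowered Cd68 and Stab1 relative to DMSO, where 23.4% of all genes passed. TPCA-1 before TNFα lowered Msr1 and Olr1 relative to TNFα alone, where 19.4% of all genes passed. Olr1 was rare and passed the low-count filter through the groups where it is high, TNFα alone and TMP195 before TNFα. TMP195 before TNFα changed none of the 7 relative to TNFα alone at the threshold used in the fit without pairing. There 5.95% of all genes passed. With replicate numbers as a block in all 16 libraries, Marco was lower and Cd68 higher, where 13.5% of all genes passed. In the TPCA-1 group the number paired some libraries but not replicate 2, and it was taken as a pairing only outside that group. A fit of those 12 libraries with the block was added after seeing the data. There Msr1, Scarb1 and Stab1 were lower too, where 32% of all genes passed. In that fit all 7 passed between TNFα and DMSO, where 50.8% of all genes did.

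Scavenger receptors are surface or endosomal proteins that bind lipoprotein particles whose protein or lipid has been oxidised or acetylated, together with other charged ligands such as bacterial walls and dying cells. They keep taking particles up when the cell already holds enough cholesterol, and macrophages of the arterial wall can fill with lipid droplets and become foam cells. The family is defined by shared ligands and not by shared descent, so its members differ in structure and in regulation.

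The 4 treatment groups of 4 RNA libraries each were compared. All came from the strain labelled C57BL/6J with the genotype label B6.129P2-Apoetm1Unc/J, a targeted deletion of apolipoprotein E that the control cells carry too, so no group shows cells with Apoe. In the first group the cells received 5 µM TMP195, an inhibitor of class IIa histone deacetylases, for 1 h and then 50 ng/ml TNFα for 24 h. In the second, 500 nM TPCA-1, an inhibitor of the IκB kinase that activates NF-kB, was given for 1 h before the same TNFα. The third group received TNFα without an inhibitor, at the same dose and time, and the fourth received DMSO, the solvent. Macrophages had been grown from bone marrow with medium conditioned by L929 cells, a fibroblast line that secretes the macrophage growth factor M-CSF, and were moved to medium without it for 24 h before stimulation without serum. The labels do not give the animals' age, do not say whether cells given TNFα alone also received DMSO, and do not say whether replicates were separate animals or cultures, so p-values measure only the spread between these libraries.

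The libraries held 7.489 to 31.6 counted reads in units of 1e6. TPCA-1+TNFα replicate 2 stood apart: it had the fewest counted reads, 44% of its reads were unmapped against 4% to 7.11% in the others, and 2.91% of its counted reads were mitochondrial against 3.59% to 6.19%. Apoe had 1 to 11 reads per library. Macrophage markers were 7 genes, Adgre1, Csf1r, Itgam, Fcgr1, Mertk, Cd14 and Lyz2, with none at 0. Their sum, mostly Lyz2 and Adgre1, was 10712 to 15891 counts per 1e6 counted reads (CPM) in TMP195+TNFα and 11430 to 19914 CPM in TPCA-1+TNFα. It was 16497 to 24582 CPM in TNFα and 14416 to 23102 CPM in DMSO. At the threshold used below, 1 marker was higher and 2 lower in TNFα than in DMSO (10.9% and 12.4% of all genes). Relative to TNFα, 0 were higher and 1 lower in TMP195+TNFα (2.95% and 3% of all genes). In TPCA-1+TNFα relative to TNFα, 0 were higher and 4 lower (9.67% and 9.72% of all genes). Markers of other cells summed to at most 1.63 CPM for dendritic cells, 0.193 CPM for fibroblasts, 0.0990 CPM for erythroid cells and 0.0965 CPM for adipocytes. The 6 neutrophil markers summed to 24.9 to 47.8 CPM in TMP195+TNFα, 13.7 to 41.6 CPM in TPCA-1+TNFα, 46.7 to 87.7 CPM in TNFα and 0.78 to 2.27 CPM in DMSO, nearly all of it S100a8, with Ly6g and Elane at 0 in all libraries. The 4 endothelial markers summed to 4.37 to 6.8 CPM in TMP195+TNFα, 15.8 to 40.1 CPM in TPCA-1+TNFα, 4.26 to 7.51 CPM in TNFα and 7.93 to 11 CPM in DMSO, nearly all of it Pecam1, with Tek at 0. The 5 lymphocyte markers gave 6.99 to 9.04 CPM in TMP195+TNFα, 5.74 to 8.51 CPM in TPCA-1+TNFα, 4.71 to 6.77 CPM in TNFα and 10.2 to 14 CPM in DMSO. The 4 platelet and megakaryocyte markers, nearly all Pf4, gave 1387 to 1763 CPM in TMP195+TNFα, 483 to 1065 CPM in TPCA-1+TNFα, 1269 to 1694 CPM in TNFα and 1133 to 1390 CPM in DMSO. The part of these marker levels in the results below was not tested.

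The 7 genes lie on the minus strand of 6 chromosomes of the mouse genome (GRCm38). Msr1 (ENSMUSG00000025044) spans positions 39581685 to 39642673 of chromosome 8 and Marco (ENSMUSG00000026390) spans 120474538 to 120505024 of chromosome 1. Cd36 (ENSMUSG00000002944) and Scarb1 (ENSMUSG00000037936) share chromosome 5, at 17781690 to 17888801 and at 125277087 to 125341094. Olr1 (ENSMUSG00000030162) lies at 129485244 to 129507165 of chromosome 6. Cd68 (ENSMUSG00000018774) is the shortest locus, 69664213 to 69666153 of chromosome 11, and Stab1 (ENSMUSG00000042286) lies at 31139013 to 31168641 of chromosome 14. Stab1 is the only member with exons that overlap another gene, Nt5dc2 on the opposite strand, and reads were counted by strand.

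The bases before the start of the 4 genes that differed between TNFα and DMSO are shown because these genes moved in opposite directions. They are the 250 bases upstream of the RefSeq gene start (GRCm38.p6, minus strand) at chr6:129507166-129507415 for Olr1, chr1:120505025-120505274 for Marco, chr11:69666171-69666420 for Cd68 and chr14:31168642-31168891 for Stab1. Capitals mark matches, on either strand, to short motifs of factors known in macrophages.
Olr1: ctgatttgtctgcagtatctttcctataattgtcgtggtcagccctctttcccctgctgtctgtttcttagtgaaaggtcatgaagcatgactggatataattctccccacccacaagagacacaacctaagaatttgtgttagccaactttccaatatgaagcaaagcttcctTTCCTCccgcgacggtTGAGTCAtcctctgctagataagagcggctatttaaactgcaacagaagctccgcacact
Marco: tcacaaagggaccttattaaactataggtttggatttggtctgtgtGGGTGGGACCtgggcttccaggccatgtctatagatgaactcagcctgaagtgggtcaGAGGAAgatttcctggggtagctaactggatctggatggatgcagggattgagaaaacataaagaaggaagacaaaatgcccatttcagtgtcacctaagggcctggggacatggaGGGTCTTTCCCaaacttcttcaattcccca
Cd68: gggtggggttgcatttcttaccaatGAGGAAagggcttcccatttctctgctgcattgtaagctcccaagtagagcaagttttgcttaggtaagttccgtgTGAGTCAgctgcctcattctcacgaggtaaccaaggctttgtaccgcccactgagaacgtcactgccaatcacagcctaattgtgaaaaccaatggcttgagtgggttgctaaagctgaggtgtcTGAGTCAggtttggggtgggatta
Stab1: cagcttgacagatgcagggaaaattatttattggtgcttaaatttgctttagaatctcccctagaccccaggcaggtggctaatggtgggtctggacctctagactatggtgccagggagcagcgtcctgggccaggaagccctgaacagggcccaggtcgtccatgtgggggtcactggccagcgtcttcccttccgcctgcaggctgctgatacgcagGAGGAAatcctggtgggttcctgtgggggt

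Of the 7 members, 5 had an entry among the RefSeq promoters, and Msr1 and Scarb1 are named only. The NF-kB motif, GGG and CC with any 5 bases between them, lay in the Marco window, 204 and 30 bases before the start and on the other strand 29 bases before it, the last 2 matches overlapping. In the Cd36 window it lay 203 bases before the RefSeq start. That window, chr5:17835897-17836146, lies inside the Cd36 locus given above and not at its end. The NF-kB motif was also in 45.8% of all 32851 promoter windows of this length. The AP-1 motif TGANTCA lay 60 bases before the start of Olr1 and 149 and 24 bases before that of Cd68, and was in 6.75% of all windows. The PU.1 motif GAGGAA, found in 23.3% of all windows, lay at 76 bases in Olr1 on the other strand, 146 in Marco, 225 in Cd68 and 30 in Stab1. The motifs TGACNNNGC of NRF2, found in 10.2% of windows, and of MEF2 (CTA and TAG with any 4 bases between them), found in 3.2%, had no match in the 5 members' windows. A match is a string of letters, and binding was not measured.

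Levels of different genes are compared per kb of exon. Cd68 and Cd36 made up most of the summed level of the 7 genes in all groups, with a mean share for Cd68 of 57.5% in TMP195+TNFα, 39.3% in TPCA-1+TNFα, 47% in TNFα and 54.8% in DMSO. The share of Cd36 was 35.4% in TMP195+TNFα, 46.8% in TPCA-1+TNFα, 40.5% in TNFα and 40.5% in DMSO. Marco contributed 4.51% in TMP195+TNFα, 12.3% in TPCA-1+TNFα, 9.11% in TNFα and 2.12% in DMSO. The sum itself was 2783 ± 128 CPM per kb in TMP195+TNFα, 2237 ± 198 in TPCA-1+TNFα, 2423 ± 265 in TNFα and 3251 ± 368 in DMSO (SD, n = 4 each). Olr1 was the lowest of the 7, at 0.572 CPM per kb in TMP195+TNFα, 0.0618 CPM per kb in TPCA-1+TNFα, 0.515 CPM per kb in TNFα and 0.0143 CPM per kb in DMSO.

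**Figure D1:**
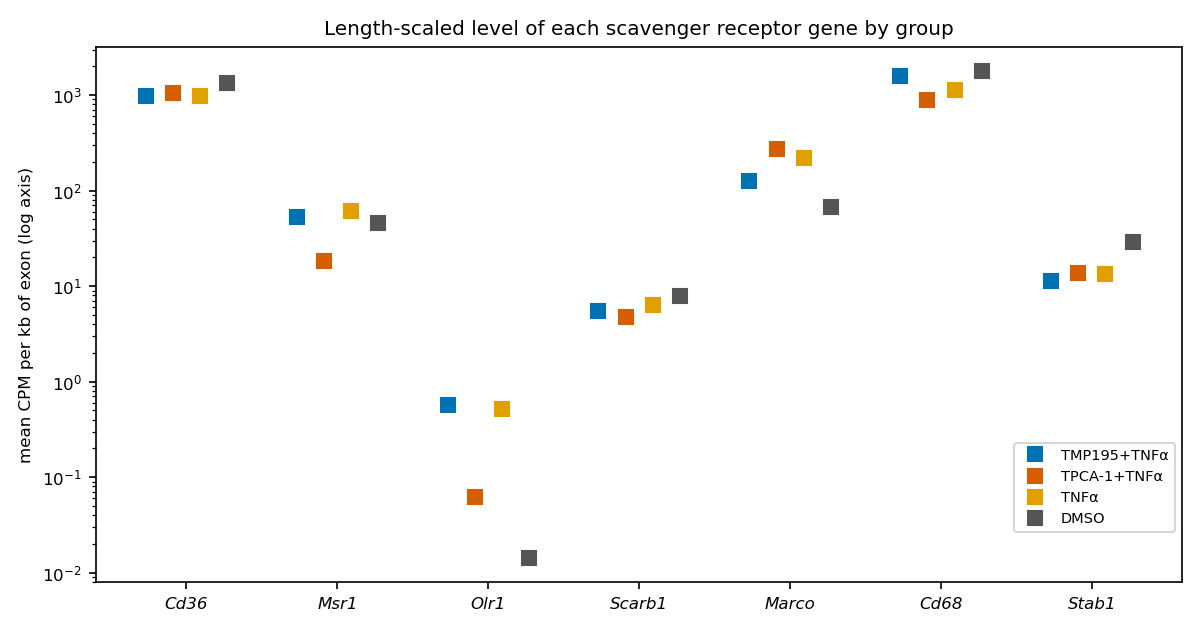
Mean level of each gene in CPM per kb of exon, on a log axis, in TMP195+TNFα, TPCA-1+TNFα, TNFα and DMSO (n = 4 libraries each). Cd68 and Cd36 lie between 885 and 1772 CPM per kb, and Olr1 lies under 0.6 CPM per kb in all groups.

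Msr1 encodes scavenger receptor A, a trimeric receptor with a collagen-like stalk that takes up acetylated and oxidised LDL. It was at 369, 340, 412 and 224 CPM in the TMP195+TNFα replicates 1 to 4, at 139, 69.5, 193 and 61.6 CPM in TPCA-1+TNFα, at 394, 392, 491 and 292 CPM in TNFα and at 264, 327, 353 and 215 CPM in DMSO. All TPCA-1+TNFα libraries lay below all others, while the other 3 groups overlapped. Replicate 4 was the lowest in each of the 4 groups. In order of mean level the groups ran TNFα, TMP195+TNFα, DMSO, TPCA-1+TNFα, and DMSO and TPCA-1+TNFα were the only neighbours without overlap.

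Marco, a related class A receptor that also binds bacteria and inhaled particles, was at 256, 145, 269 and 298 CPM in TMP195+TNFα, 491, 705, 417 and 495 CPM in TPCA-1+TNFα, 476, 228, 481 and 501 CPM in TNFα and 118, 87.7, 142 and 175 CPM in DMSO. The TNFα and TPCA-1+TNFα libraries all exceeded the DMSO libraries. TNFα replicate 2, at 228 CPM, was far below the next TNFα library at 476 CPM and overlapped TMP195+TNFα. Replicate 2 was also the lowest Marco value in TMP195+TNFα and in DMSO, but the highest in TPCA-1+TNFα. The order of means was TPCA-1+TNFα, TNFα, TMP195+TNFα, DMSO, and each group overlapped its neighbour.

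Cd36, a class B receptor, binds oxidised LDL and also imports long-chain fatty acids. Its level was 3629, 4093, 3956 and 2499 CPM in TMP195+TNFα, 4745, 2710, 3927 and 3583 CPM in TPCA-1+TNFα, 3667, 4097, 4062 and 2375 CPM in TNFα and 4532, 5639, 5721 and 3181 CPM in DMSO. All neighbours in the order DMSO, TPCA-1+TNFα, TNFα, TMP195+TNFα overlapped. Replicate 4 was the lowest in TMP195+TNFα, TNFα and DMSO, and replicate 2 was the lowest in TPCA-1+TNFα. Scarb1 encodes SR-BI, the class B receptor that exchanges cholesterol esters with HDL. It was at 40.7, 41.7, 45 and 59.1 CPM in TMP195+TNFα, 34.1, 52.8, 43.4 and 31.3 CPM in TPCA-1+TNFα, 50.7, 41, 48.6 and 77.4 CPM in TNFα and 63.7, 58.2, 55.3 and 93.6 CPM in DMSO. Its order was DMSO, TNFα, TMP195+TNFα, TPCA-1+TNFα, and all neighbours overlapped. Contrary to Cd36, replicate 4 was its highest in TMP195+TNFα, TNFα and DMSO.

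Olr1 encodes LOX-1, a lectin-like receptor for oxidised LDL known mainly from endothelial cells. It was rare, with 36, 38, 62 and 27 reads in TMP195+TNFα, 12, 0, 6 and 0 reads in TPCA-1+TNFα, 31, 31, 83 and 28 reads in TNFα and 2, 2, 0 and 0 reads in DMSO. Each DMSO library was below the floor of 3 reads, which corresponds to 0.0949 to 0.401 CPM over the libraries. Means were 2.04 ± 0.895 CPM in TMP195+TNFα, 0.221 ± 0.281 CPM in TPCA-1+TNFα, 1.84 ± 0.615 CPM in TNFα and 0.0509 ± 0.0588 CPM in DMSO (SD, n = 4 each). TMP195+TNFα and TNFα overlapped, as did TPCA-1+TNFα and DMSO, and these pairs were separated by a gap. TPCA-1+TNFα replicates 2 and 4 had no Olr1 read. The gene passed the low-count filter through TMP195+TNFα and TNFα, where it is high. Its calls against TPCA-1+TNFα and DMSO carry that limit. Floors and counting intervals show counting error alone. The intervals rest on reads summed over the 4 libraries of a group and leave out the spread between libraries. PCR copies of a molecule could not be told from separate molecules, so the counting error may be understated too.

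Cd68 encodes macrosialin, a heavily glycosylated protein mostly of late endosomes and lysosomes that binds oxidised LDL and is widely used as a macrophage marker. It was at 1862, 1823, 2072 and 2285 CPM in TMP195+TNFα, 920, 1468, 1230 and 830 CPM in TPCA-1+TNFα, 1474, 1285, 1558 and 1382 CPM in TNFα and 2275, 1888, 2490 and 2258 CPM in DMSO. DMSO and TMP195+TNFα overlapped at the high end, and TNFα and TPCA-1+TNFα overlapped at the low end, with no overlap between these pairs. Stab1 encodes stabilin-1, a large receptor that clears acetylated LDL and matrix fragments and marks alternatively activated macrophages. It was at 94, 99, 130 and 145 CPM in TMP195+TNFα, 106, 168, 174 and 122 CPM in TPCA-1+TNFα, 113, 111, 158 and 164 CPM in TNFα and 240, 197, 360 and 389 CPM in DMSO. All DMSO libraries exceeded all others, and the 3 groups that received TNFα overlapped.

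**Figure D2:**
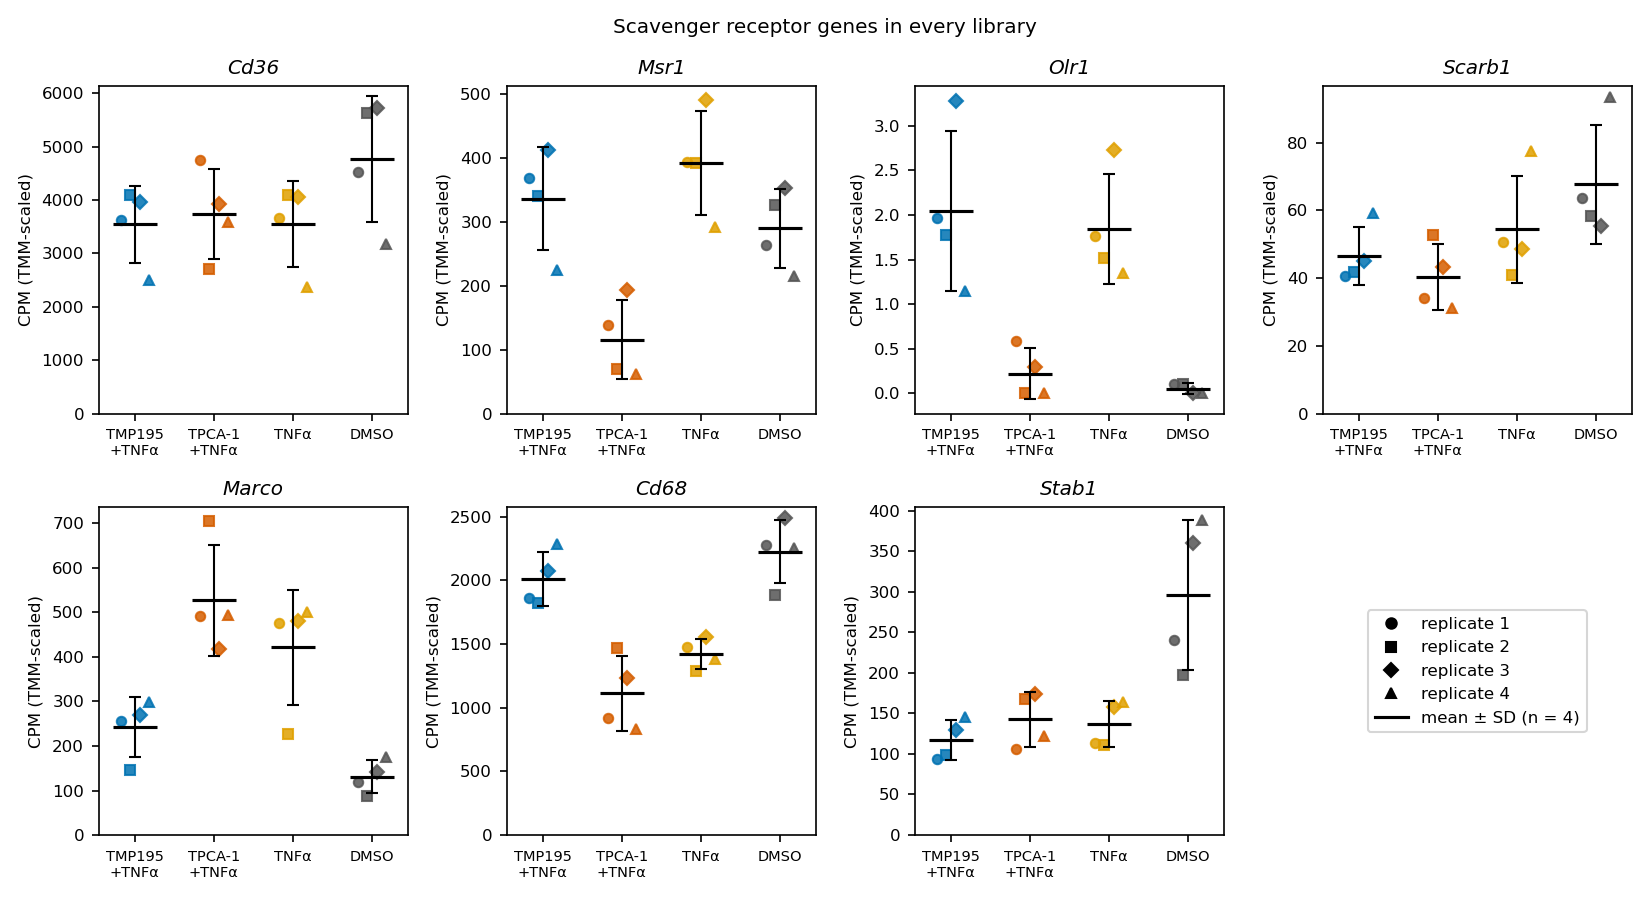
Level of each of the 7 genes in CPM in every library (points, n = 4 per group) with the group mean and SD, for TMP195+TNFα, TPCA-1+TNFα, TNFα and DMSO. Stab1 is high only in DMSO (197 to 389 CPM), Msr1 is low in TPCA-1+TNFα (61.6 to 193 CPM), and Olr1 is near 0 in DMSO.

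The first comparison asks what TNFα alone did to the receptors. Olr1 and Marco rose and Cd68 and Stab1 fell in TNFα relative to DMSO, and in all 4 genes the groups did not overlap. These are 4 of 7 members at an adjusted p under 0.05 by edgeR's quasi-likelihood test, where 23.4% of all genes tested passed, 10.9% as higher and 12.4% as lower. The 4 include Olr1, which passed the low-count filter through TNFα and TMP195+TNFα, where it is high, so the count carries that limit. The median log2 change of the 7 was -0.32, against 0.0018 over all genes. The share of all genes whose groups did not overlap was not counted, here or in the comparisons below. In bulk RNA, fewer cells of a type and less RNA per cell cannot be told apart.

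Marco was 421 ± 130 CPM in TNFα and 131 ± 36.8 CPM in DMSO (SD, n = 4 each), a log2 change of 1.69 ± 0.27 (SE, 95% interval 1.12 to 2.26), or 3.23-fold (edgeR adjusted p = 0.000147). Olr1 had 173 reads over the 4 TNFα libraries and 4 over the DMSO libraries, a depth-scaled ratio of 37.4 with an exact 95% counting interval of 14.4 to 139. Its fitted log2 change of 5.06 ± 0.77 depends on the DMSO counts under the floor (edgeR adjusted p = 9.14e-05). Stab1 averaged 136 ± 28.4 CPM in TNFα and 297 ± 92.4 CPM in DMSO, a log2 change of -1.12 ± 0.23 (edgeR adjusted p = 0.00124). Cd68 averaged 1425 ± 118 CPM in TNFα and 2228 ± 250 CPM in DMSO, a log2 change of -0.64 ± 0.15 (edgeR adjusted p = 0.00451).

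The other 3 genes did not pass. Cd36 had a log2 change of -0.43 ± 0.22 (95% interval -0.89 to 0.04, edgeR adjusted p = 0.189), Msr1 of 0.44 ± 0.30 (-0.18 to 1.06, adjusted p = 0.335) and Scarb1 of -0.32 ± 0.21 (-0.77 to 0.14, adjusted p = 0.339). Libraries of the same replicate number deviated together in TMP195+TNFα, TNFα and DMSO, and within the 4 pairs these differences had 1 direction: Cd36 was lower in TNFα in 4 of 4 pairs by -0.49 to -0.31 log2, Msr1 higher in 4 of 4 by 0.26 to 0.58, and Scarb1 lower in 4 of 4 by -0.51 to -0.19. With the replicate number as a block in all 16 libraries, none of the 3 passed, where 32% of all genes did (edgeR adjusted p = 0.0521 for Cd36, 0.068 for Msr1 and 0.206 for Scarb1). With the block in the 12 libraries without TPCA-1+TNFα, a fit added after seeing the data, all 7 passed, at edgeR adjusted p = 2.96e-06 for Cd36, 1.43e-05 for Msr1 and 0.000743 for Scarb1. In that fit 50.8% of all genes passed. How many of all genes had 1 direction in the 4 pairs was not counted, here or below.

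**Figure D3:**
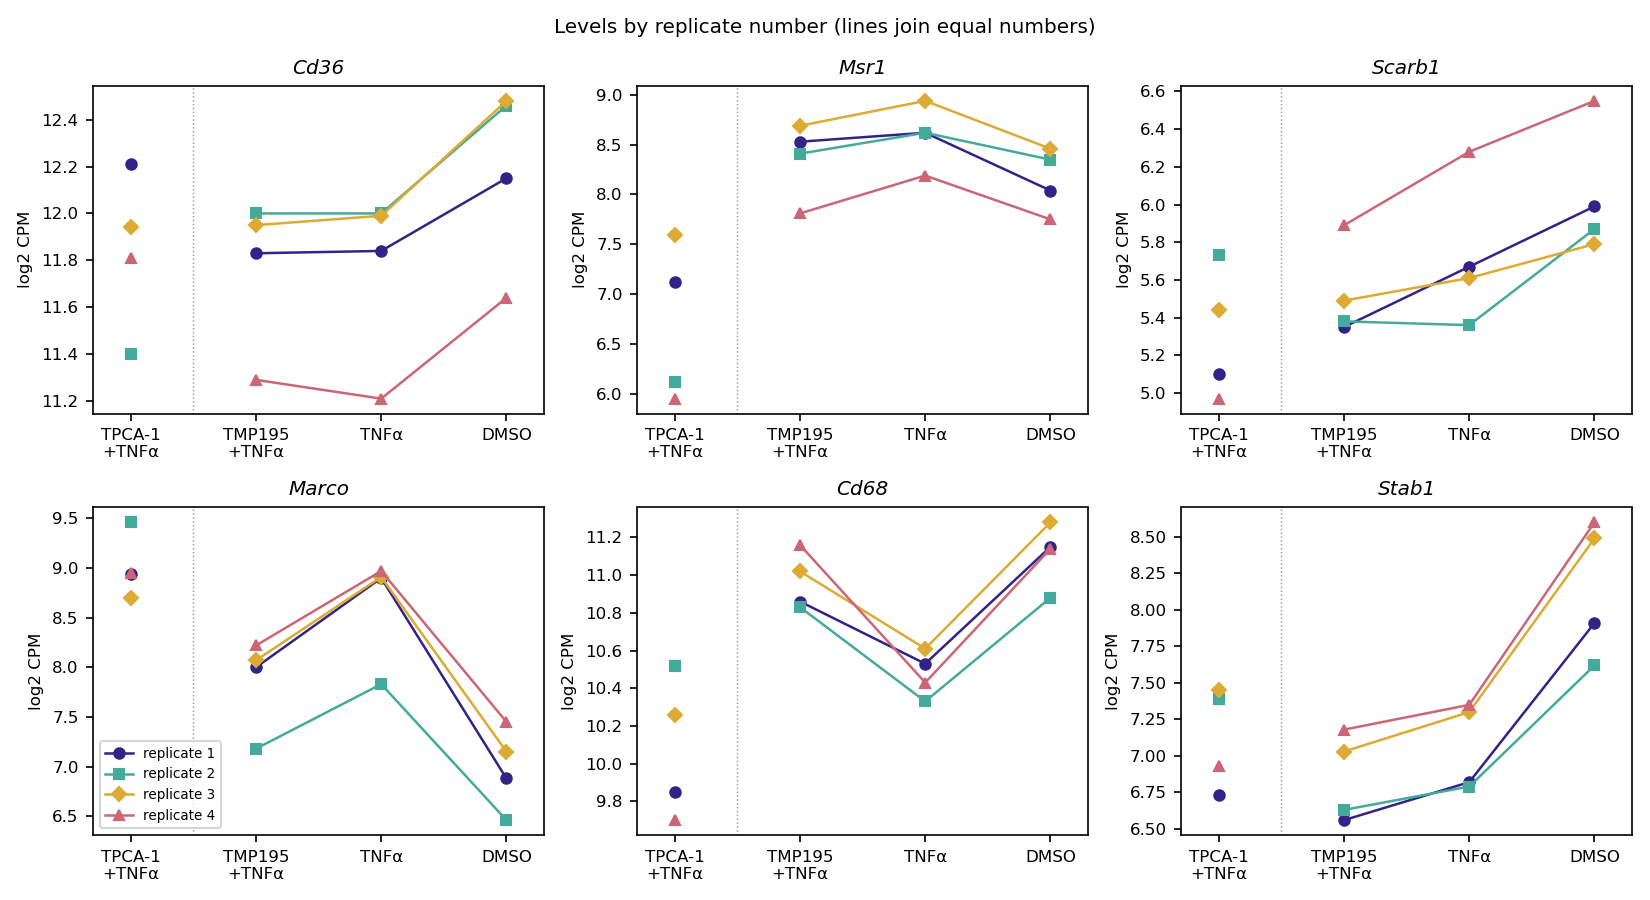
Log2 CPM of 6 of the genes by replicate number, with TPCA-1+TNFα at the left of the dotted line and lines joining equal numbers across TMP195+TNFα, TNFα and DMSO; Olr1 is left out because its DMSO counts are under the floor. Replicate 4 is lowest for Cd36 and Msr1 and highest for Scarb1, Marco and Stab1 in the 3 joined groups, and the lines run nearly parallel.

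The second comparison asks what TMP195 added to TNFα. None of the 7 genes passed edgeR's test between TMP195+TNFα and TNFα, where 5.95% of all genes did, 2.95% as higher and 3% as lower. At an unadjusted p under 0.05 there were 2 members, Marco and Cd68, where 18.8% of all genes had such a p. DESeq2 and limma each called these 2, where DESeq2 called 9.59% and limma 14.1% of all genes. The share of all genes depends on single libraries: 750 genes passed, against 496 without TNFα replicate 1, 485 without TNFα replicate 4 and 446 without TMP195+TNFα replicate 3. The number rose to 1041 without TPCA-1+TNFα replicate 2, a library of neither group compared. The median log2 change of the 7 was -0.22, against 0.02 over all genes.

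Marco averaged 242 ± 66.8 CPM in TMP195+TNFα and 421 ± 130 CPM in TNFα (SD, n = 4 each), a log2 difference of -0.80 ± 0.26 (95% interval -1.36 to -0.24, edgeR adjusted p = 0.0866). It was lower with TMP195 in 4 of 4 pairs, by -0.90 to -0.65 log2, and passed with the replicate block (edgeR adjusted p = 0.0315, where 13.5% of all genes passed). Without TNFα replicate 2, the low library, Marco also passed (log2 -1.01, edgeR adjusted p = 0.0245). That fit breaks a pair, because it kept TMP195+TNFα replicate 2, at 145 CPM the lowest of its group. The larger difference there is no further support. Cd68 averaged 2010 ± 213 CPM in TMP195+TNFα and 1425 ± 118 CPM in TNFα without overlap, a log2 difference of 0.50 ± 0.15 (0.18 to 0.82, edgeR adjusted p = 0.0646). It was higher with TMP195 in 4 of 4 pairs, by 0.34 to 0.72 log2, and passed with the replicate block (edgeR adjusted p = 0.0342). The Cd68 call was also made without TPCA-1+TNFα replicate 2 (0.49, edgeR adjusted p = 0.0233) and without TPCA-1+TNFα replicate 4 (0.49, adjusted p = 0.0419), libraries that belong to neither group compared.

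The other 5 genes differed by at most 0.22 log2 in size: Cd36 by -0.0025 (95% interval -0.46 to 0.46), Olr1 by 0.13 (-0.86 to 1.11), and Msr1, Scarb1 and Stab1 by -0.22 each (-0.84 to 0.40, -0.67 to 0.23 and -0.69 to 0.26), with edgeR adjusted p between 0.682 and 0.998. For Olr1 the reads numbered 163 in TMP195+TNFα and 173 in TNFα, a depth-scaled ratio of 1.06 with a counting interval of 0.853 to 1.32. In the 12 libraries with the block, the fit added after seeing the data, 32% of all genes passed. Msr1 at -0.23 (edgeR adjusted p = 0.009), Scarb1 at -0.20 (adjusted p = 0.0298) and Stab1 at -0.22 (adjusted p = 0.0186) passed there. Marco at -0.79 (edgeR adjusted p = 3.05e-07) and Cd68 at 0.50 (adjusted p = 7.77e-06) passed there too. Cd36 at 0.0045 (edgeR adjusted p = 0.96) and Olr1 at 0.13 (adjusted p = 0.709) did not pass in that fit either.

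The third comparison asks what TPCA-1 did to the response to TNFα. Msr1 and Olr1 fell in TPCA-1+TNFα relative to TNFα, both without overlap. They are 2 of 7 members, where 19.4% of all genes passed, 9.67% as higher and 9.72% as lower. This count includes Olr1, which passed the low-count filter through TNFα and TMP195+TNFα, where it is high, and carries that limit. The members' median log2 change was -0.36, against 0.02 over all genes. Msr1 averaged 116 ± 61.9 CPM in TPCA-1+TNFα and 392 ± 81.4 CPM in TNFα (SD, n = 4 each), a log2 change of -1.76 ± 0.30 (95% interval -2.40 to -1.12), to 0.295 of the TNFα level (edgeR adjusted p = 0.000541). Olr1 had 18 reads over the TPCA-1+TNFα libraries and 173 over the TNFα libraries, a depth-scaled ratio of 0.137 (counting interval 0.0793 to 0.223) and a fitted log2 change of -2.83 ± 0.61 (edgeR adjusted p = 0.00344).

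Without TPCA-1+TNFα replicate 2, the library that stood apart, Msr1 was at -1.59 (edgeR adjusted p = 0.00233) and Olr1 at -2.64 (adjusted p = 0.00771). The fitted Olr1 change was -3.87 without TPCA-1+TNFα replicate 1, which holds 12 of the 18 reads (edgeR adjusted p = 0.00119). Cd68 had a log2 difference of -0.36 ± 0.15 with all libraries (edgeR adjusted p = 0.112), and passed without TPCA-1+TNFα replicate 2 at -0.53 (adjusted p = 0.0151); that library held its highest TPCA-1+TNFα value. The others did not pass: Cd36 at 0.08 (95% interval -0.39 to 0.54), Stab1 at 0.06 (-0.41 to 0.54), Marco at 0.32 (-0.23 to 0.88) and Scarb1 at -0.44 (-0.89 to 0.02), with edgeR adjusted p of 0.835, 0.87, 0.41 and 0.168.

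The inhibitors were also set against each other directly, at the single dose given for each, 5 µM for TMP195 and 500 nM for TPCA-1, so the doses differ. Msr1, Olr1 and Cd68 were higher and Marco was lower in TMP195+TNFα than in TPCA-1+TNFα, all 4 without overlap. That is 4 of 7 members, where 25.7% of all genes passed, 13.1% as higher and 12.6% as lower. Olr1 is in this count with the limit that it passed the low-count filter through the groups where it is high. The median log2 difference was 0.22 for the members and 0.0013 for all genes. Msr1 averaged 336 ± 80.4 CPM in TMP195+TNFα and 116 ± 61.9 CPM in TPCA-1+TNFα (SD, n = 4 each), a log2 difference of 1.54 ± 0.30 (edgeR adjusted p = 0.0012). Olr1 had 163 reads in TMP195+TNFα and 18 in TPCA-1+TNFα, a depth-scaled ratio of 7.76 (counting interval 4.76 to 13.4) and a fitted log2 difference of 2.96 ± 0.61 (edgeR adjusted p = 0.00178).

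Cd68 averaged 2010 ± 213 CPM in TMP195+TNFα and 1112 ± 293 CPM in TPCA-1+TNFα, a log2 difference of 0.85 ± 0.15 (edgeR adjusted p = 0.000557). Marco averaged 242 ± 66.8 CPM in TMP195+TNFα and 527 ± 124 CPM in TPCA-1+TNFα, a log2 difference of -1.12 ± 0.27 (edgeR adjusted p = 0.00486). The 4 differences held without TPCA-1+TNFα replicate 2, at 1.36 for Msr1 (edgeR adjusted p = 0.00478), 2.76 for Olr1 (adjusted p = 0.00407), 1.02 for Cd68 (adjusted p = 7.27e-05) and -0.95 for Marco (adjusted p = 0.0193). The Olr1 difference was 3.99 without TPCA-1+TNFα replicate 1 (edgeR adjusted p = 0.000687). Cd36 at -0.08 (95% interval -0.54 to 0.38), Scarb1 at 0.22 (-0.24 to 0.67) and Stab1 at -0.28 (-0.75 to 0.19) did not pass, with edgeR adjusted p of 0.822, 0.488 and 0.38.

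**Figure D4:**
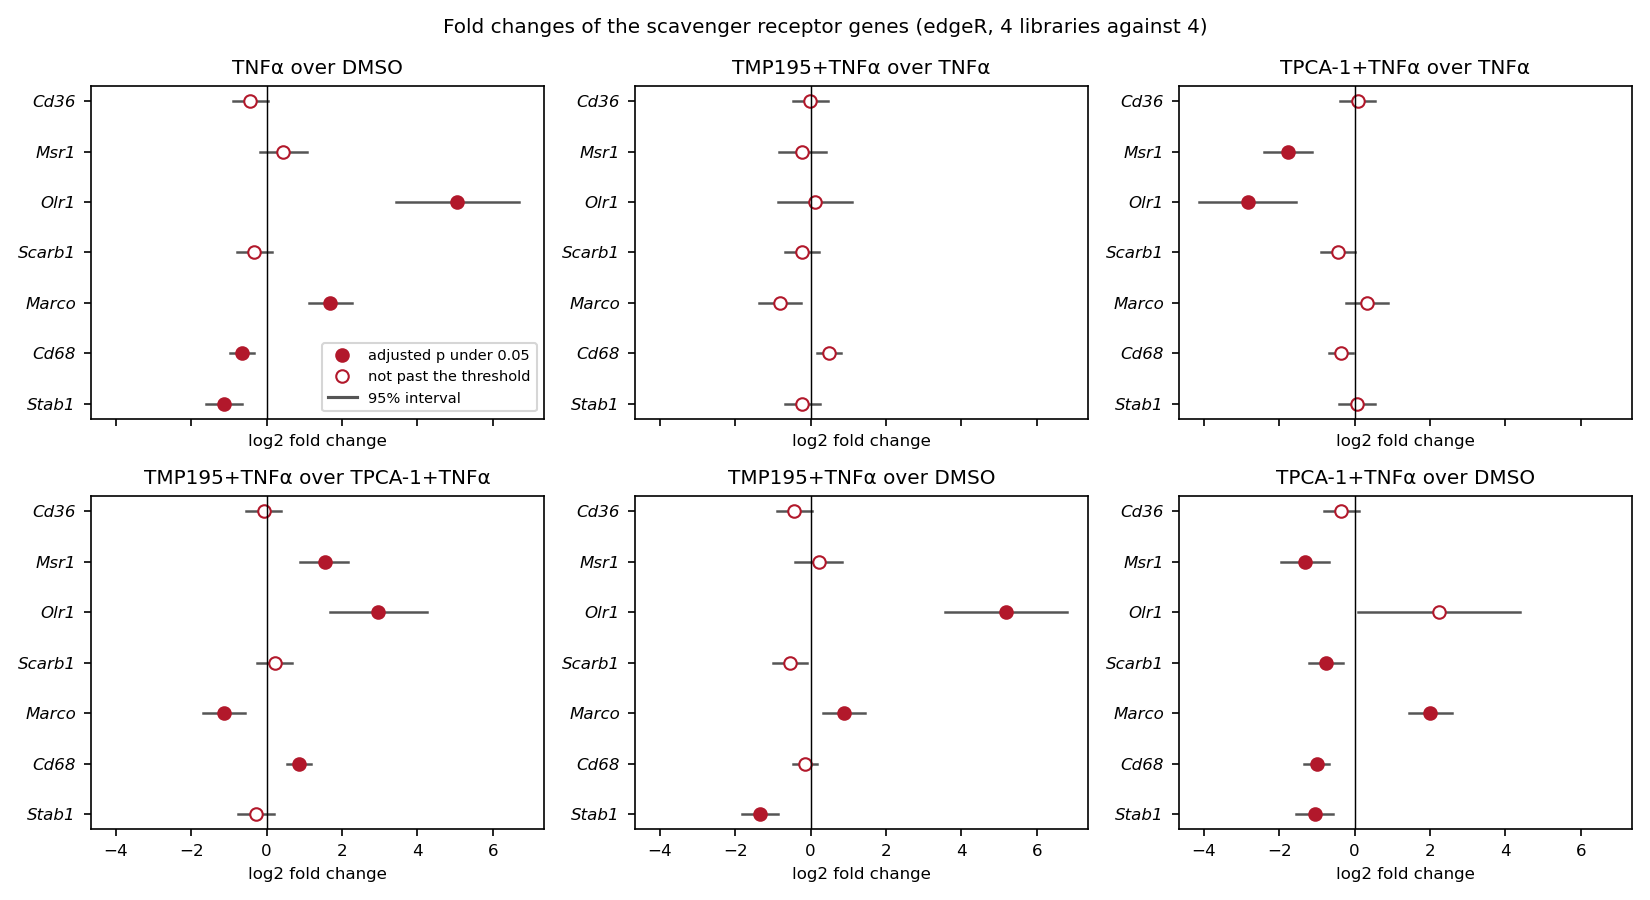
Log2 fold changes of the 7 genes in the 6 comparisons (first-named group over second), with 95% intervals from edgeR; filled points have an adjusted p under 0.05. Cd36 crosses 0 in each panel, and Olr1 and Marco lie above 0 in each comparison with DMSO, where the Olr1 interval of TPCA-1+TNFα is the widest.

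Both inhibitor groups were also compared with DMSO, using the same DMSO libraries as the comparison of TNFα with DMSO. In TMP195+TNFα, Olr1 and Marco were higher and Stab1 was lower than in DMSO, 3 of 7 members, where 27.5% of all genes passed, 13.6% as higher and 13.9% as lower. The log2 changes were 5.19 ± 0.77 for Olr1 (edgeR adjusted p = 5.99e-05), 0.89 ± 0.27 for Marco (adjusted p = 0.0181) and -1.34 ± 0.23 for Stab1 (adjusted p = 0.000229). The Olr1 ratio was 39.8 in depth-scaled reads, with a counting interval of 15.2 to 148. Its call, and the count that includes it, carry the limit of the low-count filter given above. Marco groups overlapped here, and its call was lost without DMSO replicate 1 (0.84, edgeR adjusted p = 0.0518), DMSO replicate 2 (0.74, adjusted p = 0.0582) or TMP195+TNFα replicate 4 (0.77, adjusted p = 0.0539).

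Cd68, lower in TNFα, was at -0.15 ± 0.15 in TMP195+TNFα relative to DMSO (edgeR adjusted p = 0.537). Scarb1 at -0.54 ± 0.21 (edgeR adjusted p = 0.0731) and Cd36 at -0.43 ± 0.22 (adjusted p = 0.169) did not pass, but passed with the replicate block, where 36.6% of all genes did (-0.53, edgeR adjusted p = 0.0324 and -0.42, adjusted p = 0.0483). In the 12 libraries with the block, the fit added after seeing the data, 53.7% of all genes passed. There Scarb1 was at -0.52 (edgeR adjusted p = 4.15e-06) and Cd36 at -0.41 (adjusted p = 2.91e-06). Scarb1 also passed without TNFα replicate 4 (-0.54, edgeR adjusted p = 0.0384) and without TMP195+TNFα replicate 4 (-0.67, adjusted p = 0.0383). The latter fit breaks a pair, because it kept DMSO replicate 4, at 93.6 CPM the highest of its group. Msr1 was at 0.22 ± 0.29 (edgeR adjusted p = 0.66) and passed only in the 12 libraries with the block (0.21, adjusted p = 0.00975), where 53.7% of all genes did.

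In TPCA-1+TNFα, Marco was higher and Msr1, Scarb1, Cd68 and Stab1 were lower than in DMSO, 5 of 7 members, where 30.3% of all genes passed, 14.8% as higher and 15.5% as lower. The log2 changes were 2.01 ± 0.27 for Marco (edgeR adjusted p = 2.8e-05), -1.32 ± 0.30 for Msr1 (adjusted p = 0.00291), -0.75 ± 0.22 for Scarb1 (adjusted p = 0.0138) and -1.06 ± 0.23 for Stab1 (adjusted p = 0.00179). Cd68 averaged 1112 ± 293 CPM in TPCA-1+TNFα and 2228 ± 250 CPM in DMSO (edgeR adjusted p = 9.1e-05). All 5 also passed without TPCA-1+TNFα replicate 2, at edgeR adjusted p from 1.51e-05 for Cd68 to 0.0111 for Msr1. Olr1 had 18 reads in TPCA-1+TNFα and 4 in DMSO, a ratio of 5.13 with a counting interval of 1.69 to 20.8, and a fitted log2 change of 2.23 ± 1.02 that did not pass (edgeR adjusted p = 0.109). The Olr1 adjusted p from edgeR was 0.439 without TPCA-1+TNFα replicate 1, and 0.0364 at a log2 change of 2.70 without replicate 4 of that group. Cd36 was at -0.35 ± 0.22 (edgeR adjusted p = 0.239).

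The members differed in how often they passed over the 6 comparisons, which share groups. Olr1 and Marco passed in 4, Msr1, Cd68 and Stab1 in 3, Scarb1 in 1 and Cd36 in 0. Each Olr1 call sets a group through which it passed the low-count filter against a group where it is low. For the 6 that passed at least once, the tested genes of at least 5 CPM with the most similar pattern over the 16 libraries were found by the root-mean-square difference of centred log2 CPM. This distance was 0.31 to Diaph2 and 0.34 to Rapgef2 for Msr1, whose own root-mean-square deviation was 0.86. It was 0.35 to Spn and 0.40 to Tspan3 for Marco (0.87), and 0.17 to Tmem8 and 0.18 to Pld4 for Stab1 (0.60). Cd68 lay closest to Ctsb, which encodes the lysosomal protease cathepsin B (0.17), and to Amer1 (0.18), with a deviation of its own of 0.45. Scarb1 lay 0.20 from Iffo2 and 0.20 from Tmem173 (0.40). Olr1 lay 0.70 from Sdc1 and 0.73 from the cytokine gene Il1a (1.88).

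Genes listed for related roles are counted beside the shares of all genes that passed: 23.4% in TNFα relative to DMSO (10.9% higher, 12.4% lower), 5.95% in TMP195+TNFα and 19.4% in TPCA-1+TNFα relative to TNFα, and 25.7% between the inhibitors. Other scavenger receptors outside the 7 numbered 16, of which 10 passed the low-count filter. In TNFα relative to DMSO 1 rose and 6 fell, with a median log2 change of -0.61. Mrc1, the macrophage mannose receptor, averaged 27.9 ± 6.28 CPM in TNFα and 333 ± 104 CPM in DMSO (log2 -3.58 ± 0.29, edgeR adjusted p = 1.25e-07). Stab2, the relative of Stab1, had 0.322 ± 0.111 CPM in TNFα and 3.74 ± 0.966 CPM in DMSO (-3.48 ± 0.35, edgeR adjusted p = 1.42e-06). Stab2 was high only in DMSO and may have passed the low-count filter through that group alone. Its call and the count of 6 that fell carry that limit. Scarb2, a lysosomal relative of Cd36, fell by 0.59 ± 0.12 log2 (adjusted p = 0.00106). With TMP195+TNFα relative to TNFα 1 rose and 0 fell: Lgals3, the galectin-3 gene, at 3373 ± 318 CPM in TMP195+TNFα against 1645 ± 369 CPM in TNFα (log2 1.04 ± 0.17, edgeR adjusted p = 0.00229). With TPCA-1+TNFα relative to TNFα 1 rose and 2 fell: Scarb2 at 0.47 ± 0.12, Scarf1 at -0.88 ± 0.28 and Mrc1 at -0.83 ± 0.27 log2 (edgeR adjusted p = 0.00982, 0.0375 and 0.0414). Between the inhibitors 2 were higher in TMP195+TNFα, Lgals3 at 0.90 and Mrc1 at 1.36 log2, and 1 was lower, Lrp1 at -0.63 log2.

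Receptors of native lipoproteins numbered 10, with 8 tested. In TNFα relative to DMSO 3 rose and 2 fell (median log2 0.66), the risen ones being Mylip, a ubiquitin ligase gene, at 0.75 ± 0.11, the apoE receptor Lrp8 at 1.15 ± 0.19 and Sort1 at 0.68 ± 0.12. In TMP195+TNFα relative to TNFα 0 of 8 passed edgeR's test and 2 had an unadjusted p under 0.05, with 0 called by DESeq2 and 1 by limma (median -0.17). TPCA-1+TNFα relative to TNFα raised 1 and lowered 2 (median 0.03), among them Mylip at 84.6 ± 9.33 CPM in TPCA-1+TNFα against 109 ± 3.6 CPM in TNFα (-0.37 ± 0.11, edgeR adjusted p = 0.0283). Between the inhibitors 3 were higher and 2 lower in TMP195+TNFα, among them Mylip (0.52), Lrp8 (0.80) and Sort1 (-0.52).

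Of 12 genes of cholesterol storage and export, 1 rose and 6 fell in TNFα relative to DMSO (median log2 -0.39), where 10.9% of all genes rose and 12.4% fell. The oxysterol-forming enzyme gene Cyp27a1 was at -1.90 ± 0.16 log2, the cholesterol ester hydrolase gene Nceh1 at -1.10 ± 0.11 and the sterol-sensing receptor gene Nr1h3 at 0.66 ± 0.18. TMP195+TNFα relative to TNFα raised 1 and lowered 0: Nceh1 at 214 ± 16.2 CPM in TMP195+TNFα against 138 ± 11.7 CPM in TNFα (0.63 ± 0.11, edgeR adjusted p = 0.00229). TPCA-1+TNFα relative to TNFα raised 1 and lowered 3. Plin2, the coat protein of lipid droplets, averaged 1144 ± 271 CPM in TPCA-1+TNFα and 235 ± 62.7 CPM in TNFα (log2 2.29 ± 0.26, edgeR adjusted p = 8.31e-06), while the cholesterol exporter gene Abca1 was at -0.76 ± 0.15 and Lpl, lipoprotein lipase, at -0.86 ± 0.17. Between the inhibitors 5 were higher and 3 lower in TMP195+TNFα, among them Npc2 (0.74), Soat1 (0.60) and Plin2 (-1.84).

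Of 12 partners and signalling genes of Cd36, 3 rose and 0 fell in TNFα relative to DMSO, Tlr6 at 0.76 ± 0.14, Itgb2 at 0.31 ± 0.10 and Syk at 0.49 ± 0.16 log2. TMP195+TNFα relative to TNFα raised 1 and lowered 3, the kinase gene Lyn at -0.75 ± 0.13, the Fc receptor chain gene Fcer1g at -0.45 ± 0.10 and the adaptor gene Myd88 at -0.82 ± 0.18 (edgeR adjusted p = 0.00229, 0.0117 and 0.0122). TPCA-1+TNFα relative to TNFα raised 2, Fyn at 0.64 ± 0.13 and Cd81 at 0.63 ± 0.15, and lowered 3, among them Tlr2 at 67.8 ± 6.04 CPM in TPCA-1+TNFα against 131 ± 9.23 CPM in TNFα (-0.95 ± 0.10, edgeR adjusted p = 3.54e-06). Between the inhibitors 2 were higher and 4 lower in TMP195+TNFα, among them Tlr2 (0.67), Fcer1g (-0.60) and Cd81 (-0.76).

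Of 10 regulators of scavenger receptor genes, 3 rose and 4 fell in TNFα relative to DMSO. Pparg, the nuclear receptor known to drive Cd36, averaged 17.3 ± 2.54 CPM in TNFα and 42 ± 4.04 CPM in DMSO (log2 -1.28 ± 0.13, edgeR adjusted p = 1.76e-06), and Cebpb averaged 80.7 ± 19.1 CPM in TNFα and 28.5 ± 7.14 CPM in DMSO (edgeR adjusted p = 0.000148). TMP195+TNFα relative to TNFα raised 1 and lowered 0: Nfe2l2, the gene of NRF2, at 0.40 ± 0.10 (edgeR adjusted p = 0.0292). TPCA-1+TNFα relative to TNFα raised 2, among them Pparg to 40.2 ± 4.82 CPM in TPCA-1+TNFα against 17.3 ± 2.54 CPM in TNFα (1.22 ± 0.13, edgeR adjusted p = 5.29e-06), and lowered 1, Cebpb at -0.74 ± 0.24 (adjusted p = 0.0374). Between the inhibitors 2 regulators were higher and 4 lower in TMP195+TNFα, among them Cebpb (1.03), Pparg (-0.90) and Spi1, the gene of PU.1 (-0.52).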

How the data were processed

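RNA from 16 libraries of bone marrow-derived macrophages was sequenced, 4 per group, with groups taken from the treatment labels. Per the submitters' processing notes, reads were aligned with STAR 2.6.1d, with mm10 and GRCm38 named as builds; the annotation release is not given in the sources used here. The deposited values are raw read counts per gene, without normalization, and the column counted on the strand of the library was used, the other strand holding 3.19% to 3.72% of reads. The 4 lines that name no gene were left out; in TPCA-1+TNFα replicate 2 they include 44% of reads as unmapped. Symbols and positions came from GENCODE M21, with 54809 of 54838 identifiers matched. Exon length is the union of a gene's exons.

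Counts were tested in R 4.3.3 with edgeR 4.0.16 (TMM, filterByExpr, quasi-likelihood F test, 2-sided), all 16 libraries in 1 model, with Benjamini-Hochberg adjustment over 12612 genes and a threshold of 0.05. Alternatives were RLE scaling, DESeq2 1.42.0, limma 3.58.1 with sample weights, no filter, counts without strand, a replicate block and each library left out. Procedures were tested on simulated data. Depth was 7.489 to 31.6 counted reads in units of 1e6, so the floor of 3 counts is 0.0949 to 0.401 CPM. Replicates of a group differed by more than counting error, with a chi-square per gene of 14.1 to 80.4 over 24 pairs.

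Whether replicate numbers pair libraries was read from the data. Same-numbered libraries of TMP195+TNFα, TNFα and DMSO had correlated deviations from their group means (0.37 to 0.67, 0.27 to 0.65 and 0.33 to 0.68 for the 3 pairs of groups), so the number was taken as a pairing there. For TPCA-1+TNFα the correlations ranged from -0.04 to 0.51. They were 0.37 to 0.51 for replicate 1 and 0.09 to 0.29 for replicates 3 and 4. For replicate 2, the library that stood apart, they were -0.04 to 0.02. The number was not taken as a pairing in this group. The replicate block in all 16 libraries still used the number in that group.

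Named genes were all 7 members, at most 3 genes past the threshold per list and comparison by smallest adjusted p, and the 2 genes nearest in pattern to each member that passed at least once. The members and lists were chosen with earlier results of these data known, lists share Lrp1 and Nr1h3, and no list was tested as a set. A few listed genes were counted but are not reported here by name. Promoter windows came from RefSeq (GRCm38.p6).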

Additional observations from a re-analysis of the deposited data

Results flagged for a closer look

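Among the 28 sets of 4 libraries (7 genes in 4 groups), 1 held a value far from the other 3 of its group. Marco in TNFα replicate 2 was at 228 CPM, with 476 CPM as the next lowest TNFα value, and the gap made up 0.91 of the group's range. By chance about 1 in 20 sets is picked out in this way. Replicate 2 was also the lowest Marco library in TMP195+TNFα and DMSO.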

How the results depend on the processing

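Each of the 42 changes of a member was recomputed under up to 23 alternatives. In 23 the direction and the side of the threshold held throughout, 1 lost its call under some alternative, 13 gained one and 5 changed sign. Those that changed sign were never past the threshold: Cd36 in TMP195+TNFα against TNFα (0.0033 with the replicate block, 0.0045 with the block in 12 libraries, -0.16 to 0.13 with a library left out), Cd36 in TPCA-1+TNFα against TNFα (-0.0025 by limma, -0.08 to 0.20), Cd36 between the inhibitors (-0.20 to 0.06), Olr1 in TMP195+TNFα against TNFα (-0.20 to 0.39) and Stab1 in TPCA-1+TNFα against TNFα (-0.06 to 0.17). The cause was not tested.

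For TMP195+TNFα against TNFα, 2 members passed by DESeq2, by limma, with no filter and with the replicate block, and 5 with the block in 12 libraries. The genes changed in that comparison numbered 1209 by DESeq2, 1778 by limma, 1699 with the block and 3955 with the block in 12 libraries. With the replicate block, TPCA-1+TNFα against TNFα gave 3835 genes, with the same 2 members called, and TMP195+TNFα against DMSO gave 5 members. With the block in 12 libraries, added after seeing the data, TNFα against DMSO gave 6282 genes and 7 members, and TMP195+TNFα against DMSO gave 6642 genes and 6 members. Among calls not given above, Cd68 in TPCA-1+TNFα against TNFα passed by limma, Scarb1 in TMP195+TNFα against DMSO by limma and with no filter, and Olr1 in TPCA-1+TNFα against DMSO by DESeq2.

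With each library left out in turn, the genes changed ranged from 2317 to 3429 for TNFα against DMSO, 446 to 1041 for TMP195+TNFα against TNFα, 1650 to 3313 for TPCA-1+TNFα against TNFα, 2463 to 3888 between the inhibitors, 2907 to 3909 for TMP195+TNFα against DMSO and 2933 to 4492 for TPCA-1+TNFα against DMSO. Members changed were 4 to 4, 0 to 1, 2 to 3, 4 to 4, 2 to 4 and 5 to 6 in the same order. Depth limits Olr1 most, whose DMSO libraries are each under 3 reads.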

Other observations

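The listed genes were also set against DMSO in the inhibitor groups, which share the DMSO libraries with each other. Of the other scavenger receptors, 1 rose and 5 fell in TMP195+TNFα and 1 rose and 4 fell in TPCA-1+TNFα, among 10 tested. Over all genes tested, 13.6% rose and 13.9% fell in TMP195+TNFα, and 14.8% rose and 15.5% fell in TPCA-1+TNFα. Mrc1 averaged 40.1 ± 6.46 CPM in TMP195+TNFα, 15.3 ± 6.6 CPM in TPCA-1+TNFα and 333 ± 104 CPM in DMSO (SD, n = 4 each), log2 changes of -3.06 ± 0.28 and -4.41 ± 0.30 against DMSO (edgeR adjusted p = 4.07e-07 and 1.48e-08). Stab2 averaged 0.347 ± 0.229 CPM in TMP195+TNFα, 0.503 ± 0.11 CPM in TPCA-1+TNFα and 3.74 ± 0.966 CPM in DMSO. It is among those that fell, and may have passed the low-count filter through DMSO alone. Of the 12 genes of cholesterol storage and export, 2 rose and 5 fell in each of the inhibitor groups, and Abca1 averaged 386 ± 68.4 CPM in TMP195+TNFα, 251 ± 25.1 CPM in TPCA-1+TNFα and 596 ± 76.5 CPM in DMSO (-0.63 ± 0.15 and -1.25 ± 0.15 log2, edgeR adjusted p = 0.00372 and 8.12e-06). Of the 10 regulators, 3 rose and 4 fell in TMP195+TNFα, where Pparg was at -0.96 ± 0.13 log2 (edgeR adjusted p = 2.63e-05), and 3 rose and 2 fell in TPCA-1+TNFα.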
